A study of Mus musculus with 8 samples.

Results

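The recovery of mRNAs with the RNA-binding protein DAZL was compared between the fetal ovary and the fetal testis. DAZL is a germ cell protein that binds mRNAs, mostly in their 3′ untranslated regions, and acts on their translation and stability. At the stage examined, XX germ cells in the ovary are entering meiosis, whereas XY germ cells in the testis stop dividing and take up the male programme. A difference in recovery between the sexes is the difference between the precipitates less the difference between the starting lysates, and these 2 parts were separated here.

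Gonads of embryos of strain MCH were used at E14.5, in lots of 50 XX or 50 XY gonads. No mutation or treatment is named in the labels for any group. RNA was precipitated from the lysate with an anti-Dazl antibody on protein G beads (the immunoprecipitate, IP), and 5% of the cleared lysate was kept as the input. The 8 arrays were XX input, XX IP, XY input and XY IP, 2 arrays each, with labelled cRNA made from 50 ng (input) or 1 ng (IP) of RNA. A control antibody was not used on any array analysed here, so nonspecific recovery was not measured, and recovery is the log2 difference between IP and input of the same sex. The labels do not say whether the 2 arrays of a group came from separate lots of gonads, so the p-values measure the spread between these arrays, which may be technical. The XX arrays were on 1 slide and the XY arrays on another. Each recovery was measured within a slide, but sex and slide cannot be told apart in the comparison of IP with IP or of input with input.

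The members were the autosomal probes well above background on all 4 input arrays and on both arrays of at least 1 IP. There were 6357 such probes of 41101 used, for 4940 of 19681 named genes. Of these, 4005 probes (3222 genes) were above background on all 8 arrays, 1209 in the XX IP but not on both XY IP arrays, and 1143 in the XY IP but not on both XX IP arrays. The last 2 sets had to differ in the IP to be placed there, and are therefore counted apart. Another 287 probes passed the limits on signal but lie on the X chromosome, and 28 lie elsewhere or have no position. At the threshold, the members above background in 1 IP had a median log2 signal of 2.23 in the brighter IP, and the 3510 autosomal probes left just outside, with at least 1 IP array above background but neither IP on both, had a median of 0.69.

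Signals are log2 values relative to each array's 75th percentile, which also sets the zero of recovery. The median recovery over all tested probes was 0.089 in XX and -0.034 in XY, and it was -1.92 and -1.90 with scaling to the 50th percentile, so that whether a single recovery is above 0 depends on the scaling. The inputs had 16713 to 20391 probes above background and the IPs 6068 to 9468. Over the 4005 members on all 8 arrays the inputs repeated closely (r = 0.995 in XX and 0.996 in XY, with a median difference between replicates of 0.16 and 0.13), and the IPs less so (r = 0.964 in both, with median differences of 0.74 and 0.77). The labelled tissues were checked against their markers. The germ cell genes (7 of 7) were above background in all 4 groups, with summed input signals of 126.7 and 138.5 in XX against 190.5 and 221.6 in XY. Of 40 Sertoli cell genes, 24 were above background in the XX input, against 38 in that of XY, with summed signals of 209 and 260 against 664 and 656. Of the genes that define the Sertoli cell, Amh and Dhh were not above background on either XX input, whereas Sox9 was above background on both (mean log2 signal -0.67, against 1.84 in XY). Of 35 ovarian supporting cell genes on the array, 28 were above background in the XX input and 26 in that of XY, with summed signals of 328 and 364 against 171 and 191. Wnt4 and Rspo1 of this cell type were above background on all 4 inputs, Fst on the XX inputs alone and Foxl2 on no array. Of 46 meiotic genes on the array, 42 were above background in the XX input, against 32 in that of XY, with summed signals of 683 and 737 against 96.4 and 101. In lysates of whole gonads, fewer cells of a type and less RNA per cell cannot be told apart.

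The difference in recovery, XX minus XY, passed the test (adjusted p under 0.05, limma on all 8 arrays) for 146 members higher in XX, from 124 genes, and 62 higher in XY, from 55 genes. These were 2.30% and 0.975% of the members, near the 2.18% and 1.12% of all 18265 tested probes that passed in the same directions. Both directions together were 3.27% of the members and 3.3% of all tested probes. Each called difference was then divided into its IP part (XX IP minus XY IP) and its input part (XX input minus XY input), and assigned to the IP, the input or both according to which part passed its own test, the IP part in the direction of the difference in recovery or the input part in the opposite direction. Both parts were tested with 1 spread per probe estimated from all 8 arrays, although the IPs repeated less closely than the inputs. The IP part could therefore pass more easily, and the input part less easily, than with a spread of its own. The IP carried 143 of the 146 differences higher in XX (2.25% of the members, against 0.898% of all tested probes). It carried 59 of the 62 higher in XY (0.928%, against 0.476%). Of these, 105 and 52 were members above background in 1 IP alone, whose place there already required an IP difference. Among the members on all 8 arrays the IP carried 38 of 40 differences higher in XX and 7 of 10 higher in XY. Over all members the input carried 3 in XX (0.047% of the members, against 1.28% of all tested probes) and 1 in XY (0.016%, against 0.613%). One more difference higher in XY was carried by both parts (0.016%, against 0.0164%) and 1 by neither (0.016%, against 0.0109%). Input-carried differences were more numerous outside the members, where 230 were higher in XX and 111 in XY, and 220 and 110 of these were not above background in either IP, so that their recovery has no measured IP side.

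The numbers of calls depended on single arrays. Leaving out Input_XX replicate 1 left 16 higher in XX and 15 higher in XY, and leaving out Input_XX replicate 2 left 35 and 20. Without Input_XY replicate 1 there were 20 and 14, and without Input_XY replicate 2 there were 19 and 17. Without IP_XX replicate 1 there were 91 and 27, without IP_XX replicate 2 there were 145 and 173, without IP_XY replicate 1 there were 145 and 101, and without IP_XY replicate 2 there were 596 and 101. Only 11 of the 146 and 14 of the 62 were called in each of the 8 fits that left out 1 array. Under normexp background correction, as under a 50th percentile scaling, 0 members on all 8 arrays were called, and 440 and 418 of all members had an unadjusted p under 0.05. The share of the calls that was higher in XX was 70.2%, and became 61.6% with scaling to the probes above background on all 8 arrays, 59.0% with quantile normalization, 45.6% without IP_XX replicate 2 and 85.5% without IP_XY replicate 2. It was 16.7% with no filter on dim probes (2 against 10 calls), 52.8% with array weights, 58.0% with normexp and replaced backgrounds, 58.9% without IP_XY replicate 1, and 51.6% to 63.6% without one of the inputs.

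**Figure D1:**
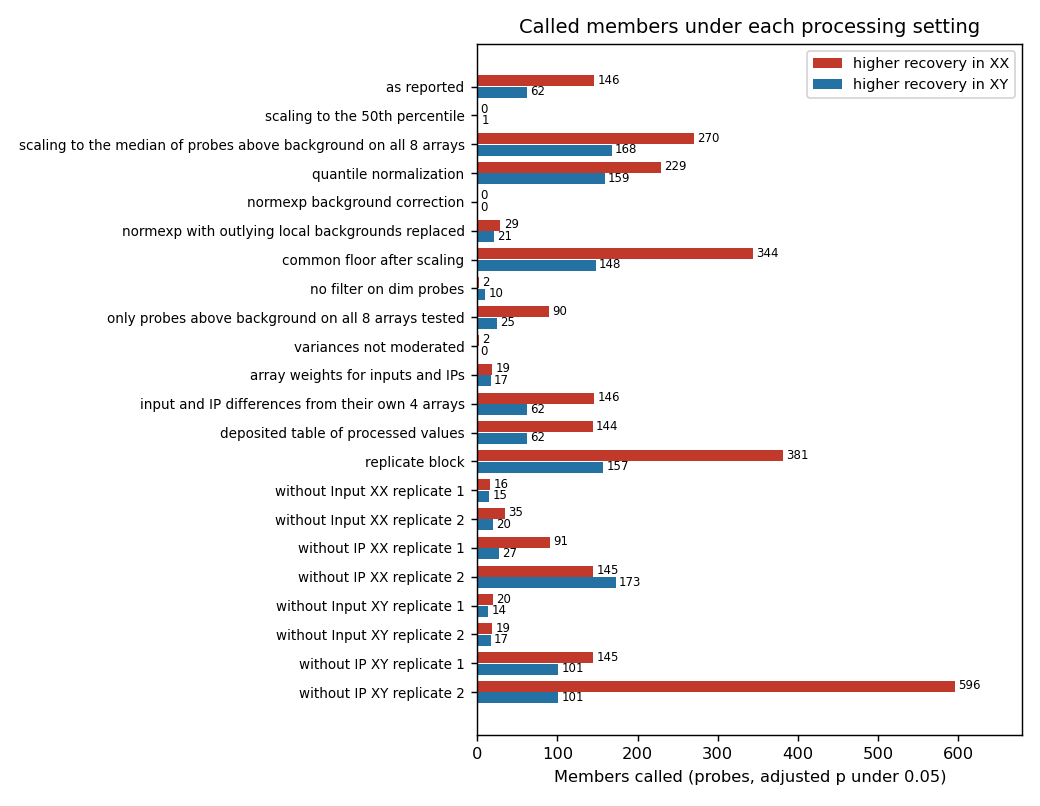
Number of members (probes) called with higher recovery in XX (red) and in XY (blue) under each processing setting, at an adjusted p under 0.05. The first pair of bars gives the reported counts of 146 and 62, and the others run from 0 and 0 with normexp background correction to 596 and 101 without IP_XY replicate 2.

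Among the 4005 members above background on all 8 arrays, 40 had higher recovery in XX (0.999%, against 2.18% of all tested probes) and 10 in XY (0.25%, against 1.12%). In the same members the IP alone differed more often. The IP was higher in XX for 609 (15.2%, against 11.7% of all tested probes) and in XY for 397 (9.91%, against 8.78%). The input was higher in XX for 100 (2.50%, against 5.87%) and in XY for 57 (1.42%, against 6.10%). Across these probes the difference between the IPs followed the difference between the inputs, with Pearson's r = 0.740 and Spearman's rho = 0.742. This is a description over probes that share the same 8 arrays and are not independent. The slope of the IP difference on the input difference was 1.37, and the SD over probes was 1.24 for the IP difference, 0.67 for the input difference and 0.87 for the difference in recovery. The SE of a single difference in recovery had a median of 0.62. The IP difference had the sign of the input difference for 7 of 7 probes with an input higher in XX by more than 3 on the log2 scale and 28 of 28 with one higher by 2 to 3. The same held for 6 of 6 and 14 of 14 probes with an input higher in XY by these amounts. Of these probes, 2 were called in recovery.

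**Figure D2:**
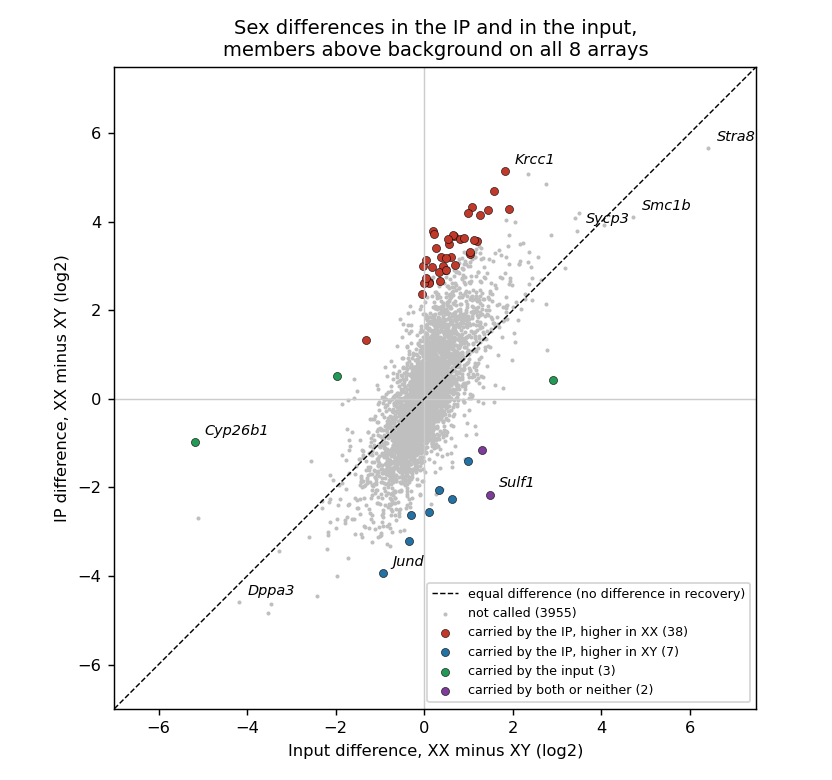
Difference between the IPs (y axis) against the difference between the inputs (x axis), both XX minus XY in log2, for the 4005 members above background on all 8 arrays. Points on the dashed line have equal recovery in both sexes, red points (38) and blue points (7) are called differences carried by the IP, and green (3) and purple (2) points those carried by the input or by both or neither. Stra8, Smc1b and Sycp3 lie far from 0 but near the line.

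The 38 IP-carried members with higher recovery in XX came from 34 genes. Their recovery was a median of 2.93 in XX and 0.23 in XY over the 40 called, and in 36 of the 40 the XX recovery itself was at least 4-fold with an adjusted p under 0.05, against 937 of the 3955 uncalled members, a limit that moves with the scaling as described above. The IP arrays of the 2 sexes did not overlap in 39 of the 40, against 2006 of the 3955 members that were not called. Their inputs were of ordinary strength, with a median log2 input signal of 2.65 for the 38 against 3.28 for the uncalled members.

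Krcc1, a gene of unknown function that encodes a lysine-rich coiled-coil protein, is on chromosome 6 (probe at 71214555 to 71214614, mm8). Its log2 signal was 4.84 and 4.96 for XX input, 8.36 and 8.57 for XX IP, 3.06 and 3.07 for XY input, and 3.04 and 3.61 for XY IP. Both XX IP arrays were far above every other array, and the XY IP lay at the level of its input. The recovery was 3.57 in XX and 0.26 in XY, a difference of 3.31 ± 0.55 (SE), or 9.91-fold (adjusted p = 0.0108). The input was also higher in XX by 1.83 (adjusted p = 0.00874), the opposite of what would raise the difference in recovery. A second probe of Krcc1 gave 2.38 and was called too. With 1 array left out the difference of the first probe ranged from 3.03 to 3.59, and its call was lost without Input_XX replicate 1 or Input_XY replicate 1.

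Yaf2 and Rybp encode related subunits of Polycomb repressive complex 1, which bind the ubiquitin ligase RNF2. Yaf2 (chromosome 15, 93112056 to 93112106) had log2 signals of 3.54 and 3.72 for XX input, 6.70 and 7.58 for XX IP, 3.41 and 3.42 for XY input, and 2.79 and 4.05 for XY IP. Its inputs differed by 0.21 between the sexes, and both XX IP arrays were above every other array. Of the XY IP arrays, replicate 2 lay above all 4 inputs and replicate 1 below them. The difference in recovery was 3.50 ± 0.69, or 11.3-fold (adjusted p = 0.022). It ranged from 2.87 to 4.13 with 1 array left out, and the call was lost without Input_XX replicate 1, Input_XY replicate 1 or Input_XY replicate 2. Rybp had log2 signals of 6.21 and 6.79 for XX IP and 2.84 and 3.83 for XY IP, over inputs of 3.24 and 3.38 in XX and 2.72 and 2.90 in XY. Its difference in recovery was 2.67 ± 0.62 (adjusted p = 0.0394), but this call was kept in 1 of the 8 fits that left out an array, that without IP_XY replicate 2 (range of the difference 2.18 to 3.17).

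Among the members on all 8 arrays, Tvp23b, a Golgi membrane protein gene, had the largest IP-carried difference higher in XX, 3.59 ± 0.78 (adjusted p = 0.0309). Its XX IP signals were 5.83 and 6.97 and its XY IP signals 1.85 and 3.37, over inputs of 1.60 and 1.98 in XX and 1.33 and 1.85 in XY. The call was lost without Input_XX replicate 1, IP_XX replicate 2, Input_XY replicate 2 or IP_XY replicate 1 (range 2.83 to 4.35). Pole4, which encodes a small subunit of DNA polymerase epsilon, had XX IP signals of 7.18 and 8.0 and XY IP signals of 2.89 and 3.89, over inputs of 2.82 and 3.14 in XX and 1.93 and 2.03 in XY. Its recovery was 4.61 in XX and 1.41 in XY, a 9.19-fold difference (3.20 ± 0.65, adjusted p = 0.0243). The XY value became -0.46 with scaling to the 50th percentile. The other 2 probes of Pole4 on all 8 arrays had recoveries of 1.54 and 1.55 in XX and -0.19 and -0.80 in XY, and their differences of 1.73 and 2.36 did not pass (adjusted p = 0.216 and 0.116). Dcun1d3, an adaptor of cullin neddylation, had a recovery of 4.86 in XX and 1.73 in XY (-0.14 in XY with the 50th percentile) and a difference of 3.13 ± 0.68 (adjusted p = 0.0309). Garre1 had a difference of 3.25 ± 0.71 (adjusted p = 0.0298), with a recovery of 3.6 in XX and 0.35 in XY.

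Other called members of this class included Zfp367 (3.12), a zinc finger gene linked to the cell cycle, Hnrnpll (3.03), a regulator of splicing, Zfp326 (2.73), Khdrbs1 (2.42), the signalling and splicing protein SAM68, and Psmc6 (2.40), an ATPase of the proteasome. A second probe of Psmc6, also on all 8 arrays, had a difference of 0.70 that did not pass (adjusted p = 0.628) and recoveries of -1.23 in XX and -1.93 in XY. A second probe of Hnrnpll, above background in the XX IP alone, had a fitted difference of 2.79 (adjusted p = 0.0536). The 3 member probes of Naa50, an N-terminal acetyltransferase, were all called, with differences of 2.53, 2.80 and 2.83. Members of the secretory pathway were also called, among them Arl1, Gopc, Tmed7, Exoc5 and Rab10, as were the chromatin genes Dek (2 probes, 2.42 and 2.51), Top2b and Smarcad1. These last 2 groups were put together after the values were seen, and no theme was tested.

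Among the 10 members with higher recovery in XY on all 8 arrays, the IP carried 7. Over the 10, the median recovery was -0.01 in XX and 2.41 in XY, the IP arrays of the 2 sexes did not overlap in any (nor in 2006 of the 3955 uncalled members), and 7 had an XY recovery of at least 4-fold with an adjusted p under 0.05, against 787 of the 3955 and again at this scaling. Jund, a subunit of the AP-1 transcription factor (chromosome 8, 73629526 to 73629585), had log2 signals of 5.87 and 6.24 for XX input, 6.47 and 7.43 for XX IP, 6.97 and 6.98 for XY input, and 10.6 and 11.1 for XY IP. The XY IP was the highest of the 4 groups on both arrays. The difference in recovery was -3.01 ± 0.62, or 8.04-fold higher in XY (adjusted p = 0.0247), and the call held in 3 of the 8 fits that left out an array, with a range of -3.49 to -2.53. It was lost without IP_XX replicate 1 or any of the 4 input arrays.

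Foxp1, a forkhead transcription factor gene, was called by 2 probes. For the brighter one, the log2 signals were 1.56 and 1.69 for XX input, 1.71 and 1.78 for XX IP, 1.23 and 1.34 for XY input, and 3.94 and 3.65 for XY IP. The input and the XX IP lay together and the XY IP alone was higher. The difference in recovery was -2.39 ± 0.53 (adjusted p = 0.0335), and the fit gave -2.75 for another called probe, above background in the XY IP alone, with a bound of -1.72. With 1 array left out the former ranged from -2.54 to -2.25, and its call was lost without IP_XX replicate 1 or any of the 4 input arrays. The others carried by the IP were Sdr39u1 (-2.89), Dync1li2 (-2.87, with an uncalled second probe at -1.97), a light intermediate chain of cytoplasmic dynein, Rhobtb1 (-2.68), Atf6 (-2.40), a transcription factor of the unfolded protein response, and Atf7ip. For Rhobtb1 the signal in the XX IP (1.87 and 2.74) was below that of its input (3.09 and 3.34), and in the XY IP (4.63 and 5.11) above it (2.98 and 3.22), and its XY recovery of 1.77 became -0.10 with the 50th percentile.

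**Figure D3:**
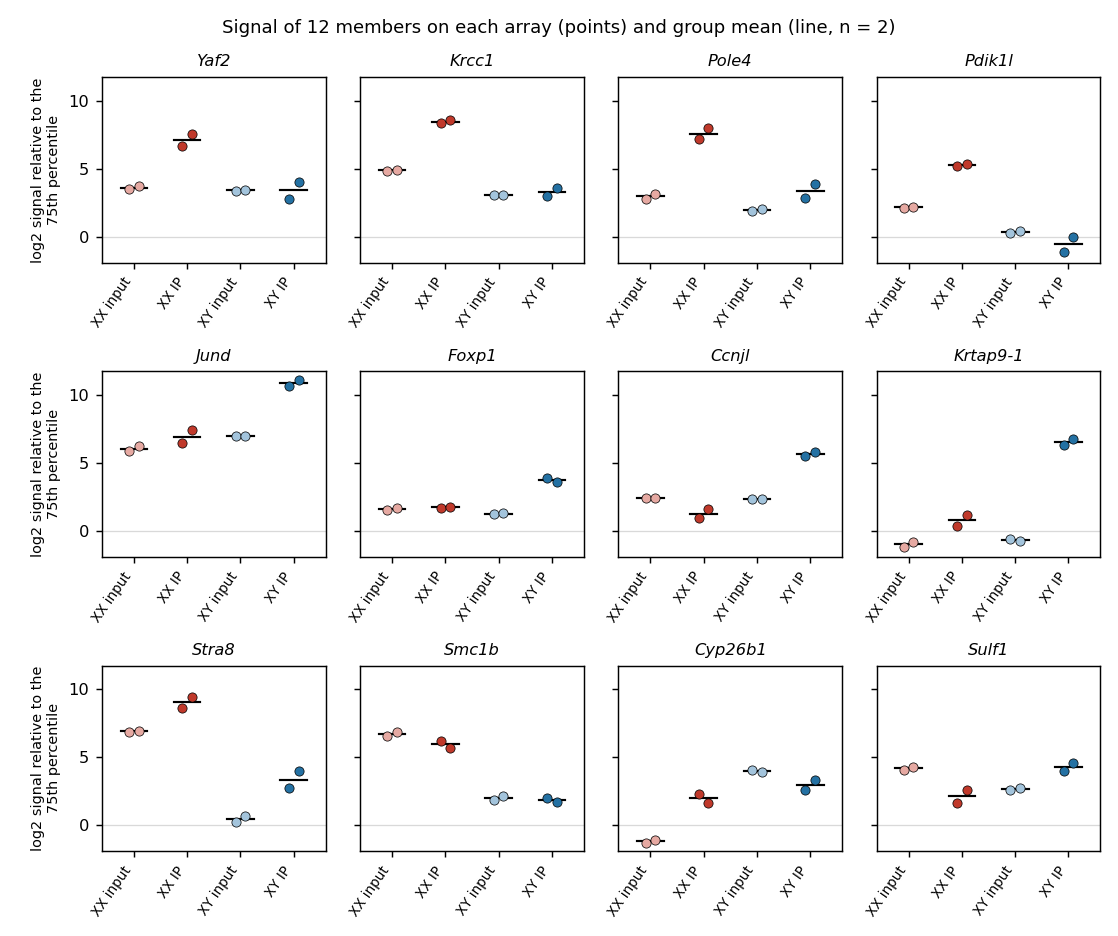
Log2 signal relative to each array's 75th percentile for 12 members on each of the 8 arrays (points) with the group mean (line, n = 2). The XX IP is the highest of the 4 groups in the top row, and the XY IP in the middle row. The inputs of Krcc1 and Pdik1l are also higher in XX. In the bottom row Stra8 and Smc1b differ between the sexes in both input and IP. Cyp26b1 differs mainly in the input, and Sulf1 in both in opposite directions.

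Of the differences carried by the input, that of Cyp26b1 was the largest among all members on 8 arrays. Cyp26b1 encodes the enzyme that breaks down retinoic acid in the testis and is made by Sertoli cells (chromosome 6, 84537616 to 84537675). Its log2 signal was -1.26 and -1.10 for XX input and 4.05 and 3.93 for XY input, a difference of -5.17 ± 0.42 (adjusted p = 1.61e-05). In the IPs it was 2.31 and 1.67 in XX and 2.62 and 3.33 in XY, a difference of -0.98 that did not pass (adjusted p = 0.132). The inputs were thus 36-fold apart and the IPs 1.98-fold. The resulting difference in recovery was 4.19 ± 0.60 in favour of XX, or 18.2-fold (adjusted p = 0.00466), and it was called in all 8 fits that left out an array. The call was lost with the common floor (difference 1.98), normexp, the 50th percentile and variances that were not moderated. A member on all 8 arrays had to lie above the lowest signal called above background in the IP, which was 1.03 and 0.28 on the XX IP arrays and -3.59 and -2.34 on the XX inputs. With an XX input at -1.18, the XX recovery of Cyp26b1 could not have been measured near 0. The same limit touches Cbln1, a secreted synaptic organiser, with an input difference of -5.10, an IP difference of -2.70 and an uncalled difference in recovery of 2.40 (adjusted p = 0.0866).

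The remaining input-carried members were few. Tmcc3 had an input of 0.23 and 0.33 in XX and 2.13 and 2.35 in XY, and IP signals of 4.20 and 4.60 in XX and 3.47 and 4.29 in XY, with a difference in recovery of 2.48 (adjusted p = 0.0423). Defb19, a defensin gene of Sertoli cells, was above background in the XY IP but on neither XX IP array. Its input was 43.8-fold higher in XY, with log2 signals of -0.17 and 0.03 in XX and 5.28 and 5.49 in XY, and its difference in recovery was 2.90 ± 0.61 in favour of XX (adjusted p = 0.0263). Since its XX IP signals of -1.13 and -0.49 were not above background, this value has no bound from below. An unnamed probe on chromosome 8 was higher in the XX input, at 4.66 and 4.96 against 1.88 and 1.90, and nearly equal in the IPs, at 4.47 and 4.76 against 3.95 and 4.43, with a difference in recovery of -2.49 (adjusted p = 0.0335).

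Sulf1 was the one member on all 8 arrays whose difference was carried by both parts. It encodes an extracellular enzyme that removes sulphate from heparan sulphate (chromosome 1, 12845435 to 12845494). Its input was higher in XX, with log2 signals of 4.10 and 4.27 against 2.62 and 2.78 in XY, and its IP was higher in XY, with 4.00 and 4.58 against 1.64 and 2.61 in XX. The ranks of the sexes were thus exchanged between input and IP. Its XX recovery was -2.06 (adjusted p = 0.00272), and its XY recovery was 1.59 (adjusted p = 0.0137). With scaling to the 50th percentile these were -4.06 and -0.28, so that the sign of the XY recovery depended on the scaling, while the difference was -3.79 (adjusted p = 0.183). The difference was -3.65 ± 0.62, or 12.5-fold (adjusted p = 0.0111), and was called in all 8 fits that left out an array. Mt2, a metallothionein gene, likewise had the higher input in XX and the higher IP in XY, with log2 signals of 4.85 and 4.70 for XX input, 3.35 and 3.61 for XY input, 3.01 and 3.16 for XX IP and 3.98 and 4.51 for XY IP. Its difference of -2.46 ± 0.56 passed (adjusted p = 0.0345), although neither the IP part (adjusted p = 0.0569) nor the input part (adjusted p = 0.0519) did.

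Among the 1209 members above background in the XX IP alone, 105 were called higher in XX (8.69%, against 2.18% of all tested probes), and all 105 were carried by the IP. A share above that of all probes follows from how these members were chosen and is not a result about them. A bound was set by taking each XY IP array at no less than the lowest signal of any probe above background on it. The difference in recovery of the 105 was then at least 2.16 in the median and still in favour of XX for each. That lowest signal is not a ceiling for dim probes, and a dim IP above it was taken at its own signal. The words at least are used in this sense here and below, and allow for no error of measurement. The bounds hold for the reported scaling and background subtraction. With normexp settings the fitted differences of the members named below were smaller and fell inside their bounds. Pdik1l, a protein kinase gene, had log2 signals of 5.20 and 5.37 for XX IP and -1.12 and 0.03 for XY IP, over inputs of 2.16 and 2.20 in XX and 0.32 and 0.41 in XY. Its recovery was at least 8.01-fold higher in XX by this probe (fitted difference 4.02 ± 0.62, adjusted p = 0.00732), which was called in each fit that left out an array. The fitted difference was 1.15 with normexp, and the call was lost under 6 of the 12 other alternatives, quantile normalization, the 50th percentile and both normexp settings among them. A second probe of Pdik1l was not called (fitted difference 2.04, adjusted p = 0.102) and had no bound in favour of XX. Rnf103, a ubiquitin ligase of the endoplasmic reticulum, had recovery at least 11.8-fold higher in XX (adjusted p = 0.0162), lost without IP_XX replicate 1. Pbx3, a homeodomain transcription factor gene, had XX IP signals of 5.86 and 6.4 over an XX input of 3.16 and 3.08, and recovery at least 7.08-fold higher in XX (adjusted p = 0.0217). For Cnot4, which binds the CCR4-NOT deadenylase, the bound was 6.70-fold (adjusted p = 0.0189), and a second probe of the gene was not called. For Cpeb2, a cytoplasmic polyadenylation element binding protein gene, it was 2.77-fold (adjusted p = 0.0435). For the cochaperone gene Dnajc3 it was 3.69-fold (adjusted p = 0.021), but 2 other probes of Dnajc3 were not called (fitted values 2.53-fold and 2.80-fold, adjusted p = 0.258 and 0.2). For Trim59 it was 4.88-fold (adjusted p = 0.0417) and for Zfp809 it was 4.09-fold (adjusted p = 0.015). With 1 array left out, the calls of Cpeb2 and Trim59 were kept in 1 of the 8 fits, that without IP_XY replicate 2, those of Pbx3, Cnot4 and Dnajc3 in 4 and that of Zfp809 in 5. The smallest fitted differences under any alternative, each with a normexp setting, were 2.21 for Rnf103, 1.19 for Pbx3, 1.10 for Cnot4, 1.03 for Cpeb2, 0.85 for Dnajc3, 0.98 for Trim59 and 0.89 for Zfp809.

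In the testis, 52 of the 1143 members above background in the XY IP alone were called higher in XY (4.55%, against 1.12% of all tested probes), again all carried by the IP and with the same reservation on the share. The difference was at least 1.97 in the median on the log2 scale in favour of XY and kept its direction at the bound for each of the 52. Krtap9-1, a keratin-associated protein gene, was faint in both inputs, at -1.17 and -0.78 in XX and -0.55 and -0.72 in XY, and in the XX IP at 0.42 and 1.22, but reached 6.37 and 6.80 in the XY IP. Its recovery was at least 34.8-fold higher in XY (fitted difference -5.42 ± 0.60, adjusted p = 0.00155). Ccnjl, a cyclin J-like gene, had nearly equal inputs of 2.42 and 2.42 in XX and 2.33 and 2.38 in XY, an XX IP of 0.93 and 1.66 and an XY IP of 5.53 and 5.79. It was at least 20.9-fold higher in XY (adjusted p = 0.00273). Dnajc12, a cochaperone gene, had an XY IP of 6.73 and 7.08 and an XX IP of 1.11 and 2.13. It was 18.4-fold higher in XY by the fitted value (adjusted p = 0.00537). The bound only repeats this value, since its dim XX IP signals were above the lowest signal above background on each array. These 3 calls held in each fit that left out an array, and were lost with normexp, the 50th percentile and variances that were not moderated. The smallest fitted differences, with normexp settings, were -2.81 for Krtap9-1, -2.79 for Ccnjl and -2.85 for Dnajc12, inside the bounds above. Sdc4, a cell surface heparan sulphate proteoglycan gene, was called by both of its probes, with recovery at least 5.89-fold and 3.54-fold higher in XY. Msi2, an RNA-binding protein gene, was at least 5.48-fold higher in XY (adjusted p = 0.0341), over inputs of -0.92 and -0.43 in XX and 0.81 and 0.72 in XY. The 3 other member probes of Msi2 had fitted differences of -2.17, -1.64 and -2.91 and were not called (adjusted p = 0.0598, 0.419 and 0.0565). Zfp783, Zfp799 and Zfp516 were at least 5.07-fold, 2.77-fold and 3.25-fold higher in XY. A second probe of Zfp516, on all 8 arrays, had a difference of -1.95 that did not pass (adjusted p = 0.108). The calls of Sdc4, Msi2 and these 3 zinc finger genes were each kept in 3 of the 8 fits, and lost without IP_XX replicate 1 or any of the 4 input arrays. With normexp settings the fitted differences came down to -1.03 and -0.67 for the probes of Sdc4, -1.07 for Msi2, -1.24 for Zfp783, -0.17 for Zfp799 and -0.09 for Zfp516, all inside the bounds above.

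A few further called members in the XY IP were picked after their values were seen. Urm1 and Ctu1 act together in the thiolation of transfer RNA, and had recovery at least 7.12-fold and 15.1-fold higher in XY (adjusted p = 0.0019 and 0.00155). The XY IP was at 2.44 and 2.66 for Urm1 and 4.24 and 4.74 for Ctu1, and all other arrays of both genes were below 0. Mt1, Hmox1 and Cth, like Mt2, are genes known to respond to metal or oxidative stress, with differences bounded at -3.06, -2.89 and -3.22 on the log2 scale, toward XY. They were kept in 6 (Mt1 and Cth) and 3 (Hmox1) of the 8 fits that left out an array. No theme was tested. For Mt1 the input was higher in XX (2.68 and 2.67 against 1.64 and 1.87) and the IP higher in XY (3.08 and 3.55 against 0.26 and 1.31).

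Agreement between probes of a gene was examined, since these are separate measurements of the same mRNA on the same arrays. Of the 892 genes with more than 1 member probe, 55 held 70 called probes. For 66 of the 70 all other member probes of the gene had the same sign, and for 28 another was called the same way. Part of this follows from the choice of members above background in 1 IP. Among the members on all 8 arrays, the 12 called probes in genes with more than 1 probe came from 8 genes, the others had the same sign for all 12, and for 7 another was called the same way. The 13 genes called by more than 1 probe were Dek, Dzip3, Krcc1, Naa50, Ndfip2, Pdlim5, Socs6, Tcea1, Trnt1 and Zfp326 in XX, and Foxp1, Pabpn1 and Sdc4 in XY. Tcea1, a transcription elongation factor gene, was called by 3 probes (at least 5.23-fold to 10.2-fold higher in XX), Socs6 by 2 (at least 6.84-fold and 10.5-fold higher in XX), and Pabpn1, the nuclear poly(A)-binding protein gene, by 2 (at least 4.05-fold and 5.32-fold higher in XY). A probe of opposite sign was found for 5830417I10Rik, Nol7, Rmnd5a and Slc20a1.

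Most genes of meiotic entry and prophase that were above background on all 8 arrays differed between the sexes in both input and IP, and none of these was called in recovery. Of 46 on the array, 18 were members, and 8 of these, with 9 probes, were above background on all 8 arrays. The lowest signal above background was 0.91 and 0.03 on the XY IP arrays. A meiotic gene with a low XY input and a poor XY recovery could therefore not be among the 8. Similar recovery in these genes may follow in part from that choice. The input was higher in XX for 8 of the 9 probes, against 100 of all 4005 members on 8 arrays, and the IP was higher in XX for 8 of the 9, against 609. The median input difference was 2.42, the median IP difference 3.04, and the median difference in recovery -0.03, as over all 4005 members (-0.03). With 1 array left out the median difference in recovery ranged from -0.37 to 0.36 for the 9 probes and from -0.37 to 0.32 for all 4005. The difference in recovery was called for 0 of the 9 (50 of all 4005 members). An unadjusted p under 0.05 was found for 0 (442 of 4005). With so few probes these counts are no result about the meiotic genes. Stra8, which is required for entry into meiosis (chromosome 6, 34869383 to 34869442), had log2 signals of 6.88 and 6.96 for XX input, 8.6 and 9.46 for XX IP, 0.28 and 0.73 for XY input, and 2.75 and 3.98 for XY IP. The XX signals were above the XY signals by 85.2-fold in the input and 50.7-fold in the IP. Its recovery was 2.11 in XX and 2.86 in XY, both past the test (adjusted p = 0.0044 and 0.00113, and 0.912 and 0.278 with the 50th percentile), and their difference was -0.75 ± 0.70 (adjusted p = 0.673). Sycp3, a component of the lateral element of the synaptonemal complex, had an input difference of 3.44, an IP difference of 3.80 and a difference in recovery of 0.36 ± 0.54 (adjusted p = 0.815), and this last value was -0.03 with quantile normalization. Smc1b, a cohesin subunit of meiotic chromosomes, had an input difference of 4.72 and an IP difference of 4.11, with a recovery of -0.75 in XX and -0.14 in XY. The others were Tex12 (-0.19 and -0.04), Stag3 (-0.03), Syce2 (0.82), Trip13 (0.97) and Ccnb1ip1 (1.12) in the difference in recovery. Trip13 differed in neither part. The smallest difference called in XX on all 8 arrays was 2.24. Iho1, which is needed for the formation of meiotic double-strand breaks, was called higher in XX, with XX IP signals of 5.48 and 6.05 and XY IP signals of -1.31 and -2.0. Because the XY IP was below background and the XY input only -1.99 and -1.89, its recovery was at least 1.65-fold higher in XX (fitted difference 2.84 ± 0.59, adjusted p = 0.0247). The call was kept in 4 of the 8 fits that left out an array, lost without any 1 of the 4 inputs, and lost under 7 of the 12 other alternatives, where the fitted difference was as low as 0.50 (normexp with replaced backgrounds).

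Since the meiotic members were higher in XX together in the input, the RefSeq promoters (GRCm38.p6, 250 bases before to 50 after the start) of the 3 named above were searched on both strands for the E box CACGTG and for TCCCGC, the core of the E2F6 element, both known from promoters of germ cell genes. CACGTG was found in 2349 of 32851 promoters (7.15%) and TCCCGC in 6562 (20%). Among the 8 meiotic genes, with 9 promoters, CACGTG was in those of Stag3, Syce2, Sycp3 and Tex12, and TCCCGC in those of Ccnb1ip1, Smc1b, Stag3, Syce2, Sycp3 and Tex12. The Sycp3 promoter (chr10:88459337-88459636, plus strand) held 2 copies of CACGTG and 1 of TCCCGC, the latter on the other strand, and the Smc1b promoter (chr15:85131908-85132207, minus strand) held 1 of TCCCGC. The Stra8 promoter (chr6:34920698-34920997, plus strand) held neither string. The stretches with the matches are given to show their arrangement, 5′ to 3′ on the strand of the gene, with the matches in capitals. The first 2 are at chr10:88459428-88459457 and chr10:88459521-88459550, and the third at chr15:85131987-85132016. These matches describe the sequence and say nothing of what binds there.
Sycp3 TCCCGC match: aaggaaggaacaGCGGGAaagtgctgcttc
Sycp3 CACGTG matches: ccCACGTGagaacgggcatggagCACGTGc
Smc1b TCCCGC match: aaaagaatttctTCCCGCgctttttttttt

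The piRNA pathway, which silences transposons in male germ cells, was the counterpart in the testis. Of its 16 probes on all 8 arrays (14 genes), the input was higher in XY for 6 (57 of all 4005 members) and the IP for 6 (397 of 4005). The difference in recovery was called for 0 of the 16 (50 of all 4005 members). An unadjusted p under 0.05 was found for 0 (442 of 4005). With so few probes these counts are no result about the pathway. A gene with a low XX input and a poor XX recovery could not be among the 16. Tdrd1, a tudor domain scaffold protein gene, had log2 signals of 1.24 and 1.42 for XX input, 4.59 and 4.65 for XY input, 3.20 and 3.80 for XX IP, and 6.69 and 7.19 for XY IP. Input and IP were thus raised in XY alike (input difference -3.29, IP difference -3.44), with a difference in recovery of -0.15 ± 0.57. For Tdrd5 the values were -3.45, -4.65 and -1.19 ± 0.59 (adjusted p = 0.354), and for Piwil2 they were -2.12, -1.72 and 0.39. Gtsf1 (2 probes) and Exd1 were the other members higher in XY in both, and Tex101 was higher in XX in both (2.76 and 2.15). Ddx4, the germ cell RNA helicase, differed between the sexes by -0.19 in the input and -0.06 in the IP. Both were less than the SE of 0.38, which the 2 parts share. The recovery of Ddx4 was 1.91 in XX and 1.78 in XY. These recoveries were -0.10 and -0.09 with scaling to the 50th percentile. Its difference in recovery was 0.13 ± 0.54, and -0.01 under that scaling. Piwil4 and Tdrd9, members through the XY IP, had inputs 109-fold and 20.1-fold higher in XY and were not above background in the XX IP, and their recoveries could not be compared. The fitted difference of Tdrd9 passed in opposite directions under 2 settings, at -2.73 with quantile normalization (adjusted p = 0.0205) and 1.86 with normexp and replaced backgrounds (adjusted p = 0.0414).

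Of 11 probes for genes of pluripotency and primordial germ cells, 0 were called in recovery (50 of all 4005 members). An unadjusted p under 0.05 was found for 0 of the 11 (442 of 4005). Dppa3, a marker of primordial germ cells and of male fetal germ cells, had an input difference of -4.19, an IP difference of -4.59 and a difference in recovery of -0.40 ± 0.67. Nr6a1, an orphan nuclear receptor gene, was higher in XX in the input (2.23) and the IP (3.51), with a difference in recovery of 1.28 (adjusted p = 0.372). Dazl itself, measured by its brightest member probe, had a recovery of 2.69 in XX and 2.06 in XY (0.68 and 0.20 with the 50th percentile). The IP of Dazl was 3.6-fold higher in XX (adjusted p = 0.00554), the input 2.33-fold (adjusted p = 0.0672), and the difference in recovery was 0.63 ± 0.56 (adjusted p = 0.657). Another probe of Dazl on all 8 arrays had an IP 3.25-fold (adjusted p = 0.00862) and an input 2.91-fold (adjusted p = 0.0225) higher in XX, and a difference in recovery of 0.16.

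Among genes for RNA-binding proteins of germ cells, 17 of 20 probes had a difference in recovery above 0, against 1940 of 4005 members, with a median of 0.46 against -0.03. The former was 0.30 without IP_XY replicate 1 or with normexp, and up to 0.62 without IP_XY replicate 2, while the latter ranged from -0.37 to 0.32 with 1 array left out. Only Khdrbs1 was called on all 8 arrays, where 50 of the 4005 members were called. Of the 20, 5 had an unadjusted p under 0.05, against 442 of the 4005 members and 16.4% of all tested probes. Khdrbs1 had XX IP signals of 6.26 and 6.68 and XY IP signals of 3.72 and 4.50, over inputs of 4.50 and 4.83 in XX and 4.60 and 4.85 in XY (difference 2.42 ± 0.60, adjusted p = 0.0494), and the call was kept in 1 of the 8 fits that left out an array, that without IP_XY replicate 2 (range 2.03 to 2.81). The uncalled members at the upper end were Stau2 (1.70 and 1.51), Papolg (1.67), Cpeb4 (1.40) and one of 2 probes of Fxr1 (1.10). Elavl2 had a recovery of 4.78 in XX and 4.51 in XY (2.78 and 2.65 with the 50th percentile), with a difference of 0.27 ± 0.53. With Cpeb2 in XX and Msi2 in XY, called members of the list lay in both directions.

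Of 20 probes for Polycomb group genes, those of Yaf2 and Rybp were called higher in XX, against 40 of all 4005 members (0.999%). An unadjusted p under 0.05 was found for 4 of the 20 (442 of 4005). Against -0.03 over all 4005 members, the median difference in recovery of the 20 was 0.57. This median was 0.27 without IP_XX replicate 2 and 0.35 with either normexp setting, and 0.27 to 0.72 over the fits that left out an array. The IP was higher in XX for 7 of the 20, against 609 of the 4005 (15.2%), and the input for 0, against 100. Rnf2, the ubiquitin ligase that both proteins bind, had a difference of 1.82 (adjusted p = 0.119), Bmi1 of 1.58 (adjusted p = 0.16) and Suz12 of 1.10 (adjusted p = 0.339), none past the test. At the other end were Phc2 (-0.79), Cbx6 (-0.78) and Jarid2 (-0.56 and -0.35).

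The probes for cytoplasmic ribosomal proteins lay to the other side. The median difference in recovery over 104 probes (77 genes) was -0.61, with 102 of 104 below 0 against 2065 of all 4005. The median IP difference was -0.66 and the median input difference -0.02. The median difference in recovery ranged from -1.02 to -0.22 with 1 array left out, and was nearest 0 without IP_XX replicate 1 or IP_XY replicate 2. Of the 104, 0 were called (50 of all 4005 members) and 0 had an unadjusted p under 0.05 (442 of 4005). No single probe went beyond -1.39 for Rps14 (adjusted p = 0.377) or 0.36 for Rps27l (adjusted p = 0.885). The median recovery was -2.24 in XX and -1.60 in XY, and -4.25 and -3.46 with the 50th percentile. Many ribosomal protein genes have processed pseudogenes of near-identical sequence, so a probe may not tell them apart. The probes of nuclear oxidative phosphorylation genes (81), similarly low in the IP (median recovery -1.87 in XX and -1.74 in XY), had a median difference of -0.17. The 72 probes for splicing factors and hnRNPs had a median of 0.05, with Hnrnpll called.

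**Figure D4:**
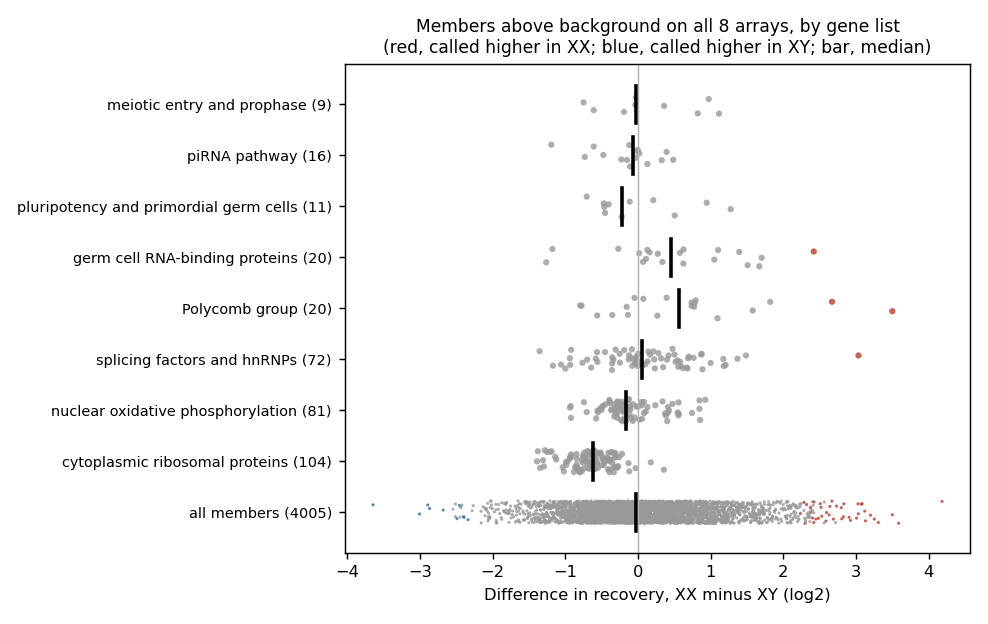
Difference in recovery, XX minus XY in log2, for the member probes on all 8 arrays in 8 gene lists and for all 4005 members, with called probes in red (higher in XX) or blue (higher in XY) and the median as a bar. The number of probes is given in brackets, and the medians run from -0.61 for cytoplasmic ribosomal proteins to 0.57 for the Polycomb group.

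In the remaining lists, called members on all 8 arrays were Cyp26b1 for Sertoli cells and retinoic acid metabolism, Jund for immediate early genes, Sulf1 for extracellular matrix, Psmc6 for the proteasome, and Zfp326 and Zfp367 for the Zfp zinc finger genes. Cdkl2, a cyclin-dependent kinase-like gene, was a called member through the XX IP, with recovery at least 1.59-fold higher in XX. Its fitted difference of 2.31 became -0.08 and -0.26 under the 2 normexp settings, and the call held in 3 of the 8 fits that left out an array. None was called on all 8 arrays, against 50 of all 4005 members, for histones (18 probes), chaperones (43), translation factors (46) or RNF and TRIM ubiquitin ligases (43). Of these, 2, 2, 1 and 4 had an unadjusted p under 0.05, against 442 of all 4005 members. None was called for cyclins and their kinases (18), erythroid genes (11), Leydig cell genes (7) or ovarian supporting cell genes (11). Of these, 2, 0, 0 and 2 had an unadjusted p under 0.05. Rspo1 of the ovarian supporting cell, a secreted activator of Wnt signalling, had inputs of 6.29 and 6.30 in XX and 3.46 and 3.6 in XY. It was lower in the IP than in the input in XX (recovery -2.53, adjusted p = 0.000848), and its difference in recovery was -1.67 (adjusted p = 0.195).

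The study measured some genes by RT-qPCR, some of which it selected as associated with DAZL in these data, so the list is not independent evidence. Of 22 on the array, 14 were members. Only Arrdc4, an arrestin domain protein gene, was called, above background in the XY IP alone, with an XY IP of 5.56 and 6.22 over an input of 2.28 and 2.38, and an XX IP of 0.67 and 1.73 over an input of 0.30 and 0.86. Its recovery was at least 6.79-fold higher in XY (adjusted p = 0.0339). With 1 array left out the fitted difference ranged from -3.47 to -2.41. The call was lost with the 50th percentile and both normexp settings, among others. The smallest fitted difference under any alternative was -1.52, inside the bound. Coq10b, a coenzyme Q-binding protein gene, was next, with a difference of -1.88 ± 0.71 (adjusted p = 0.201). With 1 array left out this difference ranged from -2.645 to -1.105. Its 2 other probes were both above background in the XY IP alone. Of these, 1 had the same sign (-1.21, adjusted p = 0.503) and 1 the opposite (0.41, adjusted p = 0.817). Trim6 had recoveries of 3.54 in XX and 4.21 in XY and a difference of -0.68 ± 0.67. Tfap2c, Sohlh2 and Hormad2 were above background in 1 IP, and the differences of -0.71, 0.51 and 0.22 did not pass (adjusted p = 0.678, 0.777 and 0.919). With a common floor, Sohlh2 had 2.98 and passed (adjusted p = 0.0245).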

How the data were processed

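RNA immunoprecipitated with anti-Dazl antibody and input RNA were measured on 1-colour Agilent arrays, 2 arrays for each of 4 groups, grouped by the labels. The deposited scanner files hold a background-subtracted signal intensity for each spot from Feature Extraction 9.5 per the labels, not normalized between arrays, and flags for spots above background, saturated or outlying. The deposited table holds log2 values that the authors scaled to the 75th percentile with a floor of 1, and was an alternative. The scanner values were used. After removal of outlying and control spots, a floor of 1 was applied, replicate spots were averaged per probe, and the 75th percentile of each array was subtracted on the log2 scale. Of 41174 probes, 73 were left out and 41101 used, and no spot was saturated. The 18265 probes above background on both arrays of a group were tested with limma 3.58.1 in R 4.3.3, with 1 mean per group over 8 arrays (4 residual and 7.82 prior degrees of freedom), two-sided, with Benjamini-Hochberg adjustment over those probes. The procedure was tested on simulated data. A called difference was assigned to the IP or the input when that part had an adjusted p under 0.05, in the same direction for the IP and the opposite one for the input. Bounds take the dim IP on each array at the higher of its signal and the lowest signal above background.

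Depth is the number of probes above background, and the number of arrays limits the precision. Genes were named through RefSeq (GRCm38.p6, names only), and positions are mm8 from the file headers. Mm8 annotation and probe sequences were not used here. The members and lists were chosen with earlier results of these data known. Named were Dazl and the study's RT-qPCR genes, up to 6 genes for each class and direction by size on all 8 arrays, the 4 with the brightest IP in each direction above background in 1 IP, and called list members, with 1 probe a gene. Genes outside this rule were picked after their values were seen. Alternatives covered scaling, background correction, floor, filter, variance, array weights, the replicate block and leaving out each array.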

Additional observations from a re-analysis of the deposited data

Results flagged for a closer look

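The difference in recovery between XX and XY is itself a test of an interaction between sex and precipitation (limma, adjusted p under 0.05), and each value below passed it. In all, 146 members were higher in XX and 62 in XY. The values are log2 differences, XX minus XY, and a negative value is higher in XY. No cause was tested for any of them.

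Carried by the IP on all 8 arrays and higher in XX were Tvp23b (3.59), Yaf2 (3.50), Krcc1 (3.31), Garre1 (3.25), Pole4 (3.20), Dcun1d3 (3.13), Zfp367 (3.12), Hnrnpll (3.03), Zfp326 (2.73), Rybp (2.67), Khdrbs1 (2.42) and Psmc6 (2.40). Higher in XY were Jund (-3.01), Sdr39u1 (-2.89), Dync1li2 (-2.87), Rhobtb1 (-2.68), Atf6 (-2.40) and Foxp1 (-2.39). The input carried the differences of Cyp26b1 (4.19) and Defb19 (2.90), both parts carried that of Sulf1 (-3.65), and neither that of Mt2 (-2.46).

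Members above background in 1 IP alone have fitted values that are not bounds. For Dnajc12 the bound only repeats the fitted value. In XX these were Rnf103 (4.31), Pdik1l (4.02), Zfp809 (3.36), Dnajc3 (3.20), Iho1 (2.84), Pbx3 (2.83), a second probe of Zfp326 (2.81), Cnot4 (2.80), Cpeb2 (2.65), Trim59 (2.64) and Cdkl2 (2.31). In XY they were Krtap9-1 (-5.42), Ccnjl (-4.43), Dnajc12 (-4.20), Zfp516 (-3.04), Sdc4 (-2.95 and -2.74), Arrdc4 (-2.94), Msi2 (-2.84), Zfp783 (-2.71) and Zfp799 (-2.54). Of the calls named here, those of Cyp26b1, Sulf1, Pdik1l, Dnajc12, Krtap9-1 and Ccnjl were made in all 8 fits that left out an array, and each of the others was lost in at least 1.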

How the results depend on the processing

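With 2 arrays per group the number of calls moved with nearly every choice, while named genes seldom changed sign. The 2 changes of filter, unmoderated variances, array weights, own arrays and the replicate block leave a fitted difference as it is. They could not change a sign, but their values are counted below. Of 1148 values of named genes under 21 alternatives together, 17 changed sign, 437 lost their call and 3 gained one. Of 1134 counts of list members, 312 moved by more than 1.5 times. The cause was not tested for any of these changes. The median difference over all tested probes was 0.03 as reported, -0.11 with the 50th percentile, -0.09 with scaling to probes above background on all 8 arrays, -0.09 with quantile normalization, and -0.10 to 0.18 when 1 array was left out. The median difference of the ribosomal protein members was -1.02 to -0.22 over the 21 alternatives. In what follows, a pair of counts is higher in XX and higher in XY, against 146 and 62 members, 143 and 59 carried by the IP, 3 and 1 carried by the input, and 40 and 10 on all 8 arrays as reported.

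Scaling to the 50th percentile gave 0 and 1 members, 0 and 1 by the IP, 0 and 0 by the input, and 0 and 0 on 8 arrays, with 418 members at an unadjusted p under 0.05. Scaling to probes above background on all 8 arrays gave 270 and 168, with 263 and 158 by the IP, 6 and 5 by the input, and 109 and 69 on 8 arrays. Quantile normalization gave 229 and 159, with 223 and 147, 5 and 6, and 107 and 69. Normexp background correction gave 0 and 0 in each of the 4 pairs (440 members at an unadjusted p under 0.05), and with outlying local backgrounds replaced 29 and 21, with 14 and 6, 15 and 15, and 9 and 3. A common floor gave 344 and 148, with 332 and 141, 11 and 5, and 89 and 37. No filter on dim probes gave 2 and 10, with 1 and 10, 1 and 0, and 1 and 0. Testing only probes above background on all 8 arrays gave 90 and 25 members, with 87 and 23 by the IP and 90 and 25 on 8 arrays, which has fewer probes by construction. Variances that were not moderated gave 2 and 0, with 2 and 0, 0 and 0, and 1 and 0. Array weights (3.61 for inputs, 0.277 for IPs) gave 19 and 17, with 18 and 7, 1 and 2, and 2 and 1. Input and IP differences tested on their own 4 arrays gave 140 and 47 by the IP and 4 and 6 by the input. The deposited table gave 144 and 62. The correlation of IP with input differences was 0.717 with the common floor, 0.634 with normexp and 0.721 with local backgrounds replaced.

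When 1 array was left out, members ranged from 16 to 596 in XX and 14 to 173 in XY, those carried by the IP from 15 to 584 and 14 to 168, those carried by the input from 1 to 10 and 0 to 4, and those on all 8 arrays from 1 to 184 and 1 to 43. The correlation ranged from 0.719 to 0.742. A group with 1 array left was assumed to vary like the others. Of the calls on all 8 arrays, those of Cyp26b1 and Sulf1 were kept in all 8 such fits.

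The replicate numbers are shared between groups. Within a sex, the input and IP of the same number hardly deviated together (r = 0.031 in XX and 0.138 in XY over 4206 probes). The labels' numbers were therefore not taken to pair input and IP. The IPs of the same number in the 2 sexes were not compared in this way. The median difference over members on all 8 arrays was 0.30 without IP_XX replicate 1 and -0.37 without IP_XY replicate 1. Replicate 1 was thus the lower IP in both sexes over these probes. With the replicate block, 381 and 157 members were called, including all 208 reported, with 368 and 148 by the IP, 6 and 2 by the input, and 106 and 39 on 8 arrays.

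The values that changed sign were those of Ddx4 (-0.013 with the 50th percentile, -0.185 with normexp), Sycp3 (-0.032 with quantile normalization), Piwil4 (-0.397 with quantile normalization, -0.977 with the common floor, -0.044 without IP_XX replicate 2), Tdrd9 (1.475 and 1.863 with normexp without and with replaced backgrounds, the latter past the test, as was -2.73 with quantile normalization), Tfap2c (0.364 and 0.014 likewise), Hormad2 (-0.797 and -1.177 likewise, -0.113 without IP_XX replicate 2, -0.338 without IP_XY replicate 2 and 0.77 without IP_XY replicate 1), Sohlh2 (-0.047 without IP_XY replicate 1, 1.058 without IP_XY replicate 2, and 2.976, past the test, with the common floor) and Cdkl2 (-0.076 and -0.256 with normexp without and with replaced backgrounds).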
